A study of Mus musculus with 2 samples.

Results

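The 4 thrombospondin genes Thbs1, Thbs2, Thbs3 and Thbs4 and the related gene Comp, which encodes cartilage oligomeric matrix protein, were followed through the non-cardiomyocytes of the pressure-loaded mouse heart. They were taken by symbol from the gene tables of both libraries, and they are 5 of 31053 genes counted. Thbs4 and Comp were already known to show large differences between these libraries when the group was drawn up, so the sham against TAC values of all 5 are given as a description. Hearts of male C57BL6/J wild-type mice were collected on day 20 after sham surgery or after TAC (transverse aortic constriction), surgery in which a tie around the aorta raises the pressure the left ventricle must pump against. The groups therefore share strain, sex, genotype and time, and differ by the operation and by the library, which cannot be told apart. Hearts were digested with collagenases, cardiomyocytes were removed by letting them settle, red cells were lysed, and viable cells that exclude DAPI were sorted and captured in droplets for 3′ RNA counting, in 1 library per group. The labels used here do not say how many hearts went into each library. With 1 library per group no test over samples exists. Intervals below are exact 95% intervals of the molecule counts, cover counting error only, and do not measure the spread between animals.

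Thrombospondins are secreted, calcium-binding glycoproteins that act in the matrix without being its main structural material. Thbs1 and Thbs2 form trimers and carry the type 1 repeats that bind CD36 and, in Thbs1, help to release active TGF-beta from its latent complex. Thbs3, Thbs4 and Comp form pentamers, lack these repeats, and bind collagens and other matrix proteins; Comp is abundant in cartilage and tendon, and Thbs4 in tendon and in stressed muscle and heart. Inside the cell, thrombospondins also pass through the endoplasmic reticulum, where Thbs4 is known as a partner of the stress sensor ATF6.

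In GENCODE vM21, an annotation of the genome build the files use (mm10), all 5 are protein-coding genes on different chromosomes. Thbs1 (ENSMUSG00000040152) lies on chromosome 2 from 118111876 to 118127133 on the plus strand, and the antisense gene Gm29233 overlaps 597 bases of it. Thbs2 (ENSMUSG00000023885) lies on chromosome 17 from 14665500 to 14694235 on the minus strand. Thbs3 (ENSMUSG00000028047) lies on chromosome 3 from 89215180 to 89226837 on the plus strand, and all 11658 bases of it are overlapped by Mtx1 on the opposite strand. Whether counting used strand is not given in the sources used here, so part of a Thbs3 count could belong to Mtx1, which itself had 1097 UMIs in sham and 1936 in TAC fibroblast-like cells, beside 2292 and 7389 of Thbs3. Thbs4 (ENSMUSG00000021702) lies on chromosome 13 from 92751590 to 92794818 on the minus strand, and Comp (ENSMUSG00000031849) on chromosome 8 from 70373558 to 70382066 on the plus strand, 289 bases from Crtc1.

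The sham library held 42490230 molecules (UMIs, each a captured RNA counted once) in 8426 barcodes, and the TAC library 96003109 in 8901. After filters, 7894 sham and 7854 TAC cells remained, with a median of 4881.5 and 11158 UMIs, so a TAC cell was read more than 2-fold deeper. The libraries had 15 barcodes in common. A cell was called fibroblast-like when it held at least 4 of the 7 markers Col1a1, Col1a2, Col3a1, Dcn, Pdgfra, Lum and Dpt and passed no gate of another lineage. This took in 6084 sham and 5359 TAC cells, of which 75 and 35 had exactly 4 markers, while 74 and 427 other cells had 3. Against a median of 170 and 391 UMIs of the fibroblast markers, fibroblast-like cells held a median of 0 UMIs of the marker lists of mural, endothelial, endocardial, lymphatic, macrophage, neutrophil, T and NK, Schwann, mesothelial, platelet and cardiomyocyte cells in both libraries. The exceptions were the monocyte list (median 2 and 8), the B cell list (1 and 2), the dendritic cell list (0 and 1) and the erythroid list (0 and 2). Levels are given as CPM, the UMIs of a gene in a group of cells scaled to 1000000 UMIs of all genes in those cells, and are compared between groups of cells for 1 gene at a time.

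The first question was where in the heart's non-cardiomyocytes these genes were read, and how the sham and TAC libraries differed. Fibroblast-like cells held nearly all UMIs of the 4 thrombospondins in both libraries. In the sham library they held 95.1% of the Thbs1 UMIs, 96.8% of Thbs2, 97.3% of Thbs3 and 95.1% of Thbs4, beside 76.1% of the UMIs of all genes. Comp was the exception, with 76.4%: the 59 sham endocardial-like cells held 14.6% of its UMIs and the 69 lymphatic endothelial-like cells 6.79%. In the TAC library fibroblast-like cells held 91.0% of Thbs1, 95.8% of Thbs2, 96.4% of Thbs3, 96.1% of Thbs4 and 93.0% of Comp UMIs, beside 71.9% of all UMIs.

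**Figure D1:**
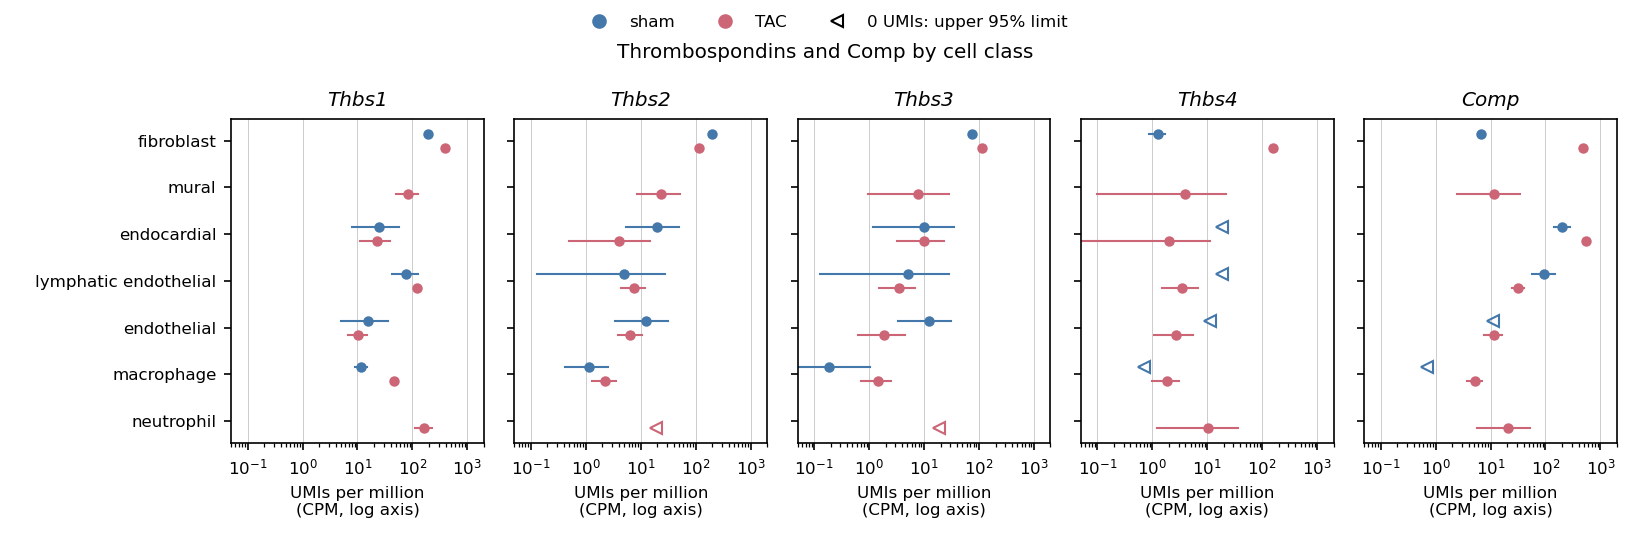
Level of each gene (CPM, log axis) in marker-gated classes of at least 50 cells, with 1 panel per gene. Circles are sums over cells, bars are exact 95% Poisson intervals of the counts (narrower than the symbol where not visible), and open triangles are upper limits where no UMI was seen. Thbs2, Thbs3 and, in TAC, Thbs4 sat highest in the fibroblast row, whereas Comp sat highest in the endocardial row in both libraries.

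Within the fibroblast-like class the members separated into 3 kinds of difference. Thbs4 and Comp were low in sham and high in TAC. Thbs1 and Thbs3 were read at higher levels in both libraries and were higher in TAC, and Thbs2 was lower in TAC. Thbs4 was at 1.25 CPM in sham (39 UMIs, in 20 cells) and 159.6 CPM in TAC (10434 UMIs, in 747 cells), 128-fold higher (93.7 to 180.4). Comp was at 6.83 CPM (214 UMIs, in 90 cells) and 476 CPM (31126 UMIs, in 1502 cells), 69.7-fold higher (60.9 to 80.1). These were the 2 highest log2 ratios among 8812 genes with at least 10 CPM in either library, 6.16 and 5.93 on the log2(CPM + 1) scale. Thbs1 stood at 194.7 CPM in sham and 384 CPM in TAC, 1.97-fold higher (1.92 to 2.03), at rank 289 from the highest. Thbs3 stood at 73.2 and 113 CPM, 1.54-fold higher (1.47 to 1.62), at rank 593. Thbs2 stood at 201.9 and 115.9 CPM, 1.74-fold lower in TAC (1.69 to 1.80), at rank 8478 of 8812. Of the 5 members 2 were at least 2-fold higher and none was 2-fold lower, where 3.06% of all genes tested were at least 2-fold higher and 2.44% at least 2-fold lower. The members' median log2 ratio was 0.98 and that of all genes tested -0.06. In summed counts, fewer expressing cells and less RNA per expressing cell cannot be told apart, so shares of cells with a UMI were also read at equal depth.

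For that comparison each fibroblast-like cell was reduced at random to 3800 UMIs, and 1139 sham and 223 TAC cells below that depth were left out. The share of cells with Thbs1 was then 26.8% in sham (25.6 to 28.1) and 47.6% in TAC (46.2 to 49.0). Thbs3 was seen in 23.3% (22.1 to 24.5) and 33.5% (32.2 to 34.8). Thbs2 went the other way, with 46.0% in sham (44.6 to 47.4) and 32.5% in TAC (31.2 to 33.8). Without thinning the Thbs2 shares were 53.4% and 60.7%, so the direction of its share turned with depth while its CPM was lower in TAC either way. Thbs4 went from 0.222% (0.111 to 0.398) to 9.19% (8.41 to 10.0), and Comp from 1.17% (0.892 to 1.51) to 21.2% (20.1 to 22.4).

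Macrophage-like cells gave a background at the same depth, except for Thbs1, whose TAC level there was above the range of other fibroblast genes. There, Thbs4 and Comp were seen in 0 of 656 sham cells and in 0.581% and 2.03% of 688 TAC cells. Thbs2 was seen in 0.610% and 1.02% of those cells, and Thbs3 in 0.152% and 0.581%. Thbs1 was seen in 1.52% and 4.94%, which is not read as background. The macrophage-like cells had a median of 4365 and 8665 UMIs before thinning, and the fibroblast-like cells 4991 and 12071. The sham share of Thbs4 in fibroblast-like cells lay below 0.561%, the upper limit of the macrophage share of 0, and cannot be told apart from background, whereas the sham share of Comp lay above it. Summed over all cells, sham Thbs4 at 1.25 CPM (0.886 to 1.70) was above the macrophage upper limit of 0.702 CPM.

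**Figure D2:**
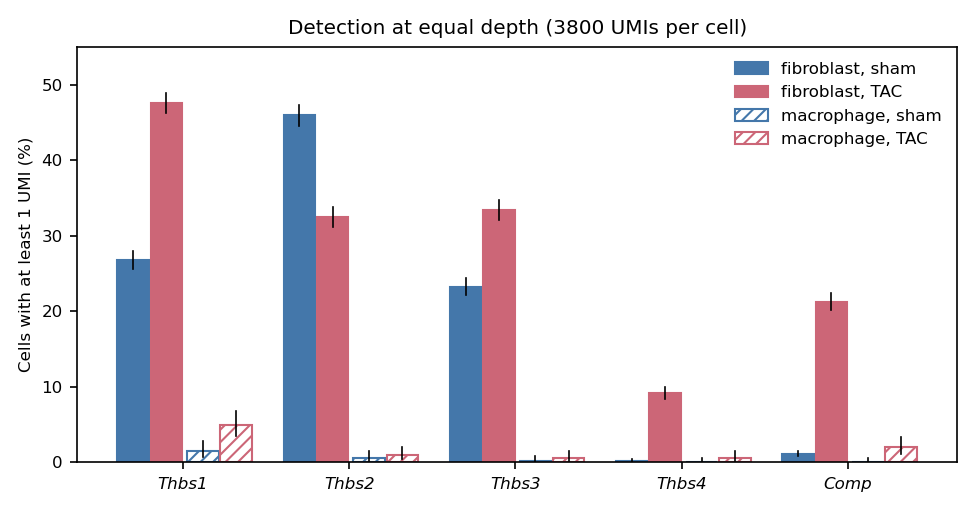
Share of cells with at least 1 UMI of each gene after every cell was thinned to 3800 UMIs (vertical axis, percent), in fibroblast-like cells (filled bars) and macrophage-like cells (hatched bars), sham in blue and TAC in red, with exact 95% binomial intervals. Thbs2 is the gene whose sham bar (46.0%) stands above its TAC bar (32.5%), and the Thbs4 and Comp bars are close to 0 in sham.

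The number of UMIs in a cell that had any differed by gene. At 3800 UMIs, a TAC fibroblast-like cell with Thbs4 held 6.04 UMIs of it on average, and one with Comp 8.61. For Thbs1 the values were 2.74 in sham and 2.90 in TAC, for Thbs2 1.68 and 1.46, and for Thbs3 1.20 and 1.28. For Thbs2 and Thbs3, at so few UMIs per cell, a changed level in every cell and a changed share of expressing cells look alike. These numbers therefore do not separate them for those genes. Thbs1 had 5 or more UMIs in 4.43% of sham and 8.84% of TAC cells. Its share of cells with a UMI was 26.8% in sham and 47.6% in TAC, beside similar UMIs per positive cell. Whether the Thbs1 difference lay in more cells or in more RNA per cell was not tested. The highest single TAC cell, without thinning, held 484 UMIs of Thbs4, 434 of Comp, 106 of Thbs1, 15 of Thbs2 and 12 of Thbs3.

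Thbs4 has its RefSeq start preceded by the 250 bases printed here, from chr13:92794819-92795068 (GRCm38.p6, minus strand), because its ratio was the highest on the log2(CPM + 1) scale with all cells kept (with CPM + 10 it was 3.91 and Comp 4.85). Capitals mark 2 overlapping matches of the TEAD motif GGAATG (as CATTCC on the strand shown), which 12.6% of 32851 RefSeq mouse promoters of this length held on either strand. They also mark 1 match of the SMAD motif CAGACA (as TGTCTG), which 17.1% held.
Thbs4 promoter: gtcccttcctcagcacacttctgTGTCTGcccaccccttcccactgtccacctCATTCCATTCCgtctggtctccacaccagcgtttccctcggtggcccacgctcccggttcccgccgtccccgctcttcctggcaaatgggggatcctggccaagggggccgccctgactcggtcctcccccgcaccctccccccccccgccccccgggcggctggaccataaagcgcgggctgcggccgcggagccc
No match of the AP-1 motif TGANTCA was in this window on either strand. The TATA box core TATAAA was absent from it too, as was the CCAAT box. A match is a description of letters and was not tied to binding. Promoter entries matched for 3 of the 5 members.

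Thbs4 in TAC was concentrated in few cells. When fibroblast-like cells were clustered with the 5 members left out of the genes used, a cluster of 60 TAC cells and 0 sham cells held 50.3% of all Thbs4 UMIs of TAC fibroblast-like cells, from 1.12% of the cells. Thbs4 was at 6691 CPM there (6511 to 6875) and was seen in 59 of 60 cells, with a median of 62 UMIs per cell. The other leading genes of the cluster were Scx, a transcription factor of tendon progenitors, Fmod (fibromodulin) and Tnmd (tenomodulin), matrix and membrane proteins of tendon, followed by Spp1, Chodl, Cthrc1, Rflnb, Cilp2 and Col22a1. Scx was at 541 CPM in these cells and 2.65 CPM in the other TAC fibroblast-like cells, Fmod at 1075 and 22.9, and Tnmd at 353 and 0.279. Tnmd was seen in 25.0% of the 60 cells, while Mkx and Chad, other tendon genes, were at 0 UMIs. Of the further tendon and cartilage markers, Acan had 1 UMI. Sox9 was lower in the cluster than in the other TAC fibroblast-like cells, at 70.1 against 169 CPM. The cluster is therefore called by its leading genes and given no cell type name. A cluster found in 1 library may be that library rather than a state.

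Without these 60 cells Thbs4 stood at 80.3 CPM in TAC, 64.5-fold above sham (47.1 to 90.8). The cluster was separate at a Leiden resolution of 0.5. At 0.3 no cluster stood so high (166 CPM at most for Thbs4), and at 1 the highest was 828 CPM. A marker gate took in 163 TAC cells (and 5 sham cells) with at least 2 of Scx, Tnmd, Mkx, Fmod, Chad, Sox9 and Acan. These TAC cells held 48.0% of the TAC Thbs4 UMIs, at 2399 CPM (2333 to 2466). Scx, Tnmd and Fmod are also leading genes of the cluster, so the gate is not separate support. How many cells the gate and the cluster share is not given here. Thbs4 was seen in 80 of these 163 cells, so the other cells of this gate had none.

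**Figure D3:**
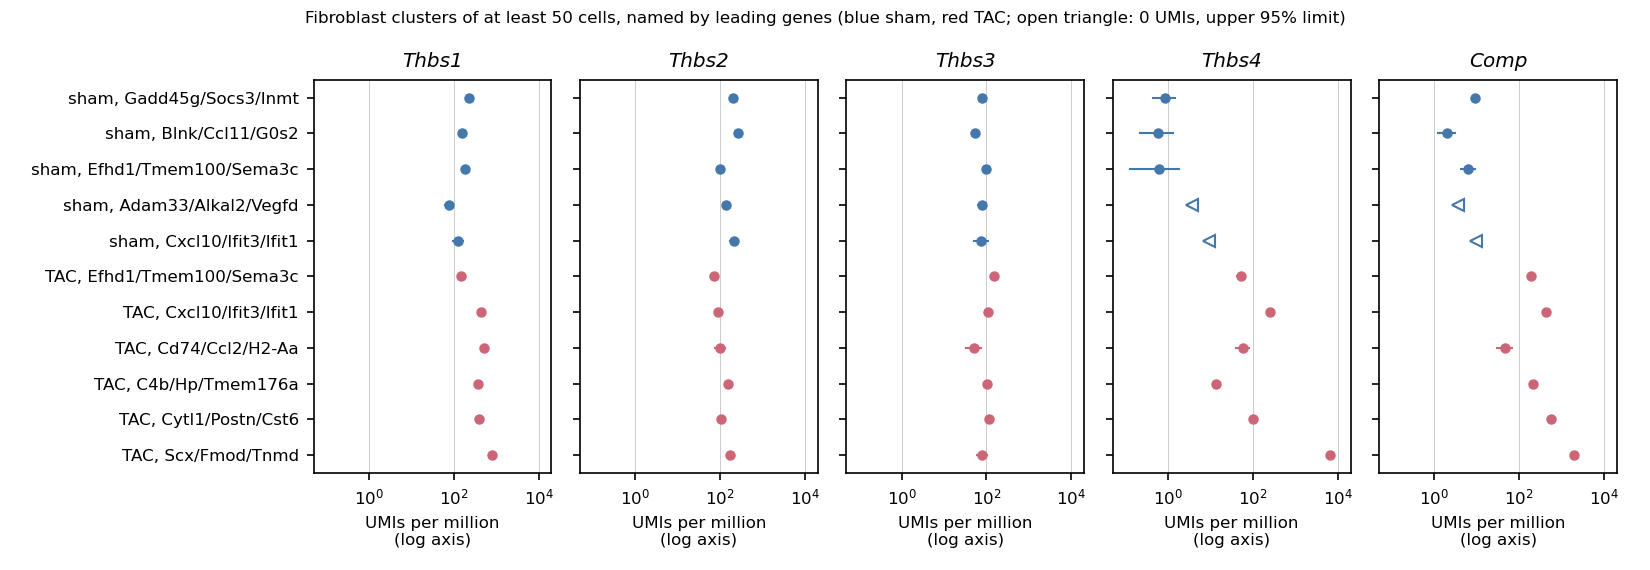
Level of each gene (CPM, log axis) in fibroblast clusters of at least 50 cells in a library, named by library and 3 leading genes, with exact 95% Poisson intervals and open triangles as upper limits where no UMI was seen. Thbs4 is 6691 in the TAC cluster led by Scx, Fmod and Tnmd and between 13.2 and 251 in the other TAC clusters, while Thbs2 and Thbs3 vary much less.

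Comp had a smaller part of its UMIs in that cluster than Thbs4, a contrast that holds at this resolution. The cluster led by Scx held 4.86% of the TAC fibroblast Comp UMIs, at 1929 CPM (1833 to 2029), and without it Comp was at 458.5 CPM, 67.1-fold above sham (58.7 to 77.1). The largest TAC cluster (3591 cells, led by Cytl1, Postn and Cst6 beside Comp) had Comp at 566 CPM (559 to 573). The second largest (1210 cells, led by C4b, Hp and Tmem176a) had it at 208 CPM (201 to 215). At a resolution of 1, 1 cluster of 762 TAC cells held 24323 of the 31126 Comp UMIs and 7804 of the 10434 Thbs4 UMIs, so most UMIs of both genes then lay in the same 14.2% of cells. At 0.5, Thbs4 differed more than Comp between the clusters led by Cytl1 and by C4b, at 98.7 CPM (95.8 to 101.6) and 13.2 CPM (11.4 to 15.2). The cluster led by Efhd1, Tmem100 and Sema3c occurred in both libraries and held the adventitial genes Cd248 and Dpp4. In it Comp was at 6.28 CPM in 836 sham cells and 184.5 CPM in 135 TAC cells, and Thbs4 at 0.608 and 51.6 CPM. In the cluster led by the interferon-induced genes Cxcl10, Ifit3 and Ifit1, Comp was at 0 UMIs in 73 sham cells, with an upper limit of 9.45 CPM, and at 425 CPM in 135 TAC cells. Thbs4 was at 0 UMIs in those sham cells and at 251 CPM in the TAC cells. Both genes were thus higher in TAC inside each of the 2 clusters that had at least 50 cells in both libraries.

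Thbs4 and Comp were seen together more often than their single shares give. At 3800 UMIs, 186 of 5136 TAC fibroblast-like cells held both, where the product of the shares gives 100.3 cells, a ratio of 1.86 (1.60 to 2.14). Of the cells with Thbs4, 39.4% also held Comp, and of the cells with Comp, 17.05% held Thbs4. Without the cluster led by Scx the ratio was 1.71 (1.45 to 2.01), from 147 cells against 85.9. The other 9 pairs of members had ratios from 0.961 to 1.12 in TAC. Among these only Comp with Thbs2 (1.11, 1.01 to 1.23) and Comp with Thbs3 (1.12, 1.01 to 1.23) had intervals above 1. In sham, Thbs1 and Comp were seen together in 7 cells against 15.5 (0.450, 0.181 to 0.928), and no other sham pair had an interval that left out 1. Cells without any of the 5 genes made up 29.8% of sham and 17.4% of TAC cells, and all 5 were seen in 0 sham and 16 TAC cells.

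The second question was how the members follow fibroblast activation, read from markers other than the members. Cells were ordered by how many of Postn, Cilp, Ltbp2, Cthrc1 and Meox1, genes known from activated cardiac fibroblasts, had a UMI at 3800 UMIs. In TAC, Comp was at 244 CPM in 359 cells with none of them, 353 CPM with 2 of them, 849 CPM with 4, and 2958 CPM (2780 to 3145) in 91 cells with all 5. Thbs4 followed more steeply, at 2.93 CPM with none, 38.6 CPM with 2, 441 CPM with 4 and 2741 CPM (2570 to 2922) with 5. Without the cluster led by Scx, Thbs4 was at 218 CPM with 4 markers and 592 CPM (496 to 701) with 5, and Comp at 3259 CPM with 5. The order of the steps was the same without those cells. Where none of the 5 markers was seen at this depth, 8.91% of TAC cells held Comp, at a level far above the 4.24 CPM of such sham cells. Thbs4 was near its floor in both (2.93 CPM from 4 UMIs, and 0 UMIs in sham with an upper limit of 0.270 CPM). Before thinning, fibroblast-like cells held a median of 4991 UMIs in sham and 12071 in TAC, so an unseen marker need not be absent.

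Thbs1, Thbs2 and Thbs3 followed the same markers less. Thbs1 in TAC was at 227 CPM with none (203 to 254), between 350.2 and 378 CPM from 1 to 4 markers, and at 619 CPM (539 to 708) with 5. In the cluster led by Scx, Thbs1 was at 808.5 CPM, its highest cluster level. Without that cluster Thbs1 was at 513 CPM (424 to 615) with 5 markers. Thbs3 went from 82.8 CPM (68.3 to 99.6) to 138.8 CPM (102.3 to 184) with neighbouring steps whose intervals overlapped. Thbs2 ran the other way, at 205 CPM (182 to 231) with none, 138.7 CPM with 1 and 107.6 CPM (95.2 to 121) with 4, before 162 CPM (122 to 210) with 5. In sham, Thbs2 was at 214 CPM with none and 98.7 CPM (63.2 to 147) in the 64 cells with 3 of the markers. Sham and TAC cells with none of the markers had Thbs2 intervals that overlapped (206 to 222 and 182 to 231), and the same held for those with 2 markers (78.4 to 124.5 and 104 to 122) and with 3 (63.2 to 147 and 102 to 119). Thbs2 therefore differed by markers inside each library, and at 0, 2 and 3 markers no difference between the libraries was detectable at this depth. At 1 marker it was 194.7 CPM in sham and 138.7 CPM in TAC, with intervals apart.

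**Figure D4:**
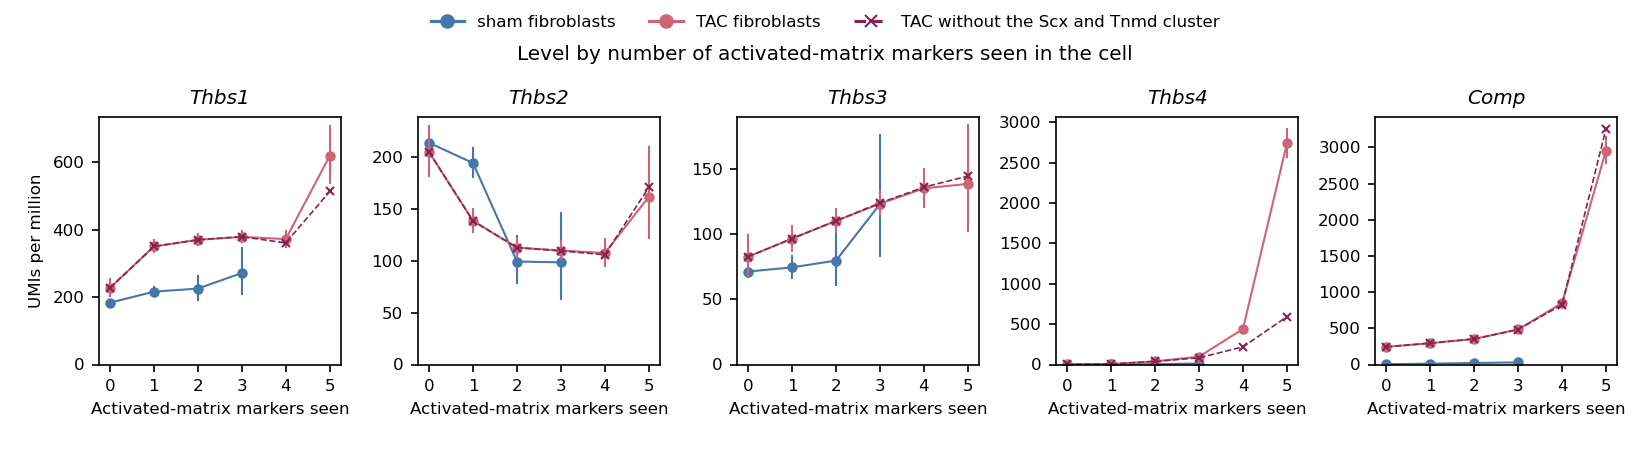
Level of each gene (vertical axes, CPM, linear, with a scale per panel) against the number of the markers Postn, Cilp, Ltbp2, Cthrc1 and Meox1 seen in a cell thinned to 3800 UMIs, for steps of at least 50 cells, with exact 95% Poisson intervals. Thbs4 and Comp climb to 2741 and 2958 at 5 markers in TAC, Thbs2 is highest at none (205), and the dashed line without the cluster led by Scx lies at 592 for Thbs4.

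Other gates used at least 2 of a state's markers. For the activated-matrix markers themselves this rule gave Comp 1.99-fold and Thbs4 38.7-fold above the other TAC fibroblast-like cells, and for the tendon and cartilage markers 5.69-fold and 28.98-fold. TAC cells with contractile genes (Acta2, Tagln, Myl9, Tpm2; 364 cells) had Comp at 1194 CPM (1137 to 1253), 2.79-fold above the other TAC fibroblast-like cells, and Thbs4 at 279 CPM (252 to 308), 2.05-fold above. TAC cells with interferon-induced genes (450 cells) had Comp at 720.5 CPM, 1.57-fold above the others, but Thbs4 at 81.3 CPM, 0.534 of the others. The cluster led by Cxcl10, Ifit3 and Ifit1 (135 TAC cells) went the other way for both genes. Comp was at 425 CPM there beside 476 in all TAC fibroblast-like cells, and Thbs4 at 251 beside 159.6 CPM. Neither order is therefore read as a trait of interferon-responding cells. Adventitial-type sham cells (Pi16, Dpp4, Cd248, Sema3c, Ly6c1; 1635 cells) had less Thbs2 than the others (147 against 231 CPM) and more Thbs3 (94.2 against 63.0 CPM), and TAC adventitial-type cells had the same order (104 against 129.9, and 138.0 against 106 CPM). Sham cells with at least 2 of Vegfd, Adam33 and Alkal2 (209 cells) had Thbs1 at 84.4 CPM (65.4 to 107) against 198 CPM in the others, and no UMI of Comp or Thbs4. The cluster led by the same genes, Adam33, Alkal2 and Vegfd (251 sham cells), had Thbs1 at 78.8 CPM, the lowest of the 11 cluster and library combinations.

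Thbs1, an activator of TGF-beta that is also a rapidly induced gene, was compared with the early response genes Fos, Fosb, Jun, Junb, Egr1, Ier2, Nr4a1 and Atf3, a list added after the data were seen. Such genes are induced within minutes by many stimuli, tissue digestion among them. In sham, Thbs1 was at 37.1 CPM (18.5 to 66.4) in cells with 2 of the 8 genes and 225 CPM (214 to 237) in cells with 7. It did not rise further in sham cells with all 8, at 203 CPM (181 to 227). In TAC it was at 141 CPM (95.1 to 201) with 1 of them and 524 CPM (455 to 600.2) with all 8. Thbs2 and Thbs3 did not follow this order: Thbs2 was between 175 and 247.5 CPM in sham and between 111 and 159.8 CPM in TAC, and Thbs3 between 69.2 and 104.6 and between 93.8 and 134 CPM. In TAC, Comp reached 1708 CPM with all 8 early genes, from 262 to 534 CPM at the other steps, while Thbs4 was at 413 CPM with 2 of them and 15.2 CPM with all 8. Thbs1 was also higher with the number of stretch-linked targets seen (of Ctgf, Cyr61, Ankrd1, Amotl2, Ajuba and Lats2). It went from 131 CPM with none to 326 CPM with 4 in sham and from 153 to 485 CPM in TAC. Comp in TAC went from 203 to 853 CPM over the same steps. Whether the order of Thbs1 by these targets is separate from its order by the early genes was not tested. At each number of early genes from 2 to 8, TAC cells had more Thbs1 than sham cells, with intervals apart. The early genes themselves were not higher in TAC: 0 of 8 were at least 2-fold higher and 4 were at least 2-fold lower. Their median log2 ratio was -0.91. Among all genes tested in this class, 3.06% were at least 2-fold higher and 2.44% lower. Fos was at -1.43 and Jun at -1.17. The part of cell handling in the Thbs1 levels was not tested.

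**Figure D5:**
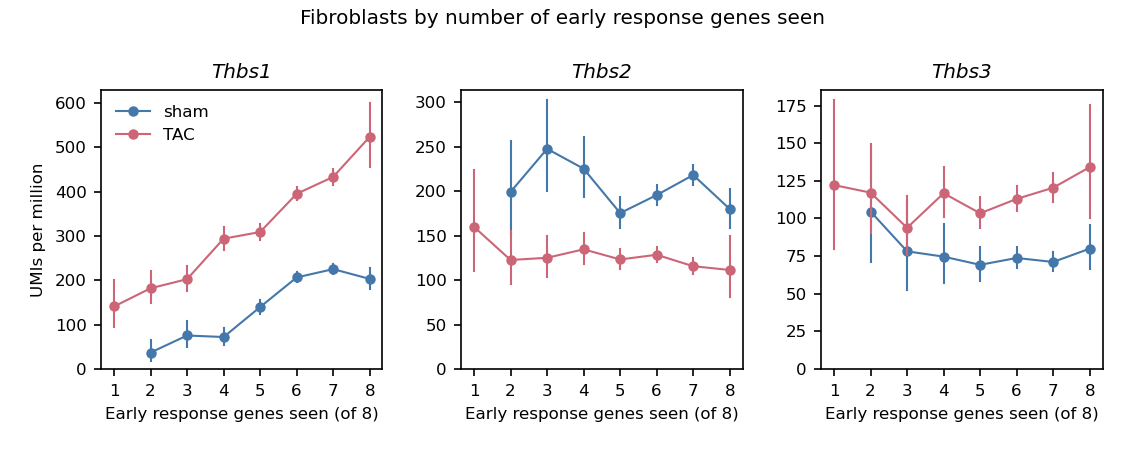
Level of Thbs1, Thbs2 and Thbs3 (vertical axes, CPM, with a scale per panel) against the number of 8 early response genes seen in a fibroblast-like cell thinned to 3800 UMIs, sham in blue and TAC in red, for steps of at least 50 cells, with exact 95% Poisson intervals. Thbs1 climbs in both libraries, to 225 at 7 genes in sham, with 203 at 8, and to 524 at 8 genes in TAC. Thbs2 and Thbs3 show no such slope.

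Thbs2, the only member with a lower TAC level in fibroblast-like cells, has the following 250 bases before its RefSeq start, at chr17:14694263-14694512 (GRCm38.p6, minus strand), shown for contrast with Thbs4. Capitals mark 2 matches of CCAAT (1 as ATTGG), held by 33.8% of the 32851 promoters, 1 of TATAAA (as TTTATA), held by 12.4%, and 2 of CAGACA (as TGTCTG).
Thbs2 promoter: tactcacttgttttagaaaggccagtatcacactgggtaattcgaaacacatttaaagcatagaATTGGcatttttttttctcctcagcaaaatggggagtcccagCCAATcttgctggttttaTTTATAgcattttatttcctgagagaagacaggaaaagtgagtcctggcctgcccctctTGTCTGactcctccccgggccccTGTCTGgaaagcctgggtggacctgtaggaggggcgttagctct
GGAATG and TGANTCA (held by 6.75% of promoters) were not in this window. Among the sham clusters Thbs2 was highest, at 267 CPM (257 to 277), in the 2170 cells led by Blnk, Ccl11 and G0s2, and 100.7 CPM (92.1 to 110.0) in the cluster led by Efhd1, Tmem100 and Sema3c. The latter cluster had the highest Thbs3 of the sham clusters, 97.9 CPM (89.4 to 107), and the cluster led by Blnk the lowest, 53.2 CPM (48.8 to 57.9). Thbs2 and Thbs3 therefore stood in opposite order in these clusters.

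Outside the fibroblast-like class the members were read at low levels, with 2 exceptions, Comp in endocardial-like and lymphatic endothelial-like cells and Thbs1 in several classes. For reference, the 8 fibroblast genes Pcolce, Islr, Serpinf1, Mmp2, Mfap5, Loxl1, Clec3b and Ddr2, added after the data were seen, were read in each class as a percentage of their fibroblast level, which gives a measured range for RNA of fibroblast genes outside their class. Thbs2 and Thbs3 outside fibroblast-like cells did not exceed 23.4 and 12.3 CPM in any class of at least 50 cells in a library, and Thbs4 did not exceed 10.2 CPM. Some of these low values still lay above the reference range, such as Thbs2 in TAC endothelial-like cells (5.60%, range 0.965% to 4.72%). Smaller classes held too few UMIs for a level, such as 5 of Thbs2 in 33 sham mural-like cells.

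Comp in the sham library was higher in endocardial-like cells, which line the heart's chambers, than in fibroblast-like cells. It stood at 201.9 CPM (145 to 274; 41 UMIs in 13 of 59 cells, at most 6 in 1 cell) in endocardial-like and at 95.7 CPM (57.6 to 149.5; 19 UMIs in 11 of 69 cells) in lymphatic endothelial-like cells, and these intervals overlapped. It was at 0 UMIs in sham endothelial-like and macrophage-like cells, with upper limits of 11.3 and 0.702 CPM. The endocardial level was 2954% of the fibroblast level, where the reference genes ranged from 0.414% to 13.8%. In TAC, endocardial-like Comp was at 549.7 CPM (486 to 619; 272 UMIs in 26 of 52 cells), 2.72-fold above sham (1.96 to 3.88), where 14.1% of 9345 genes were at least 2-fold higher in that class, and 10.3% lower. The 26 TAC cells with Comp held a median of 67.5 fibroblast marker UMIs and the 26 without it 3, and the sham cells 16 and 13.5. The gate also drew on Cytl1, at 2994 CPM in sham and 453 CPM in TAC endocardial-like cells, which led the largest TAC fibroblast cluster too. The part of cells carrying both kinds of RNA in the TAC value was not tested. Thbs2 in this class was at 4 sham and 2 TAC UMIs, too few for a direction (0.0186 to 1.43).

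In lymphatic endothelial-like cells, defined by Prox1, Flt4, Mmrn1, Ccl21a, Reln and Lyve1, Comp ran opposite to fibroblast-like cells. It was at 95.7 CPM in sham and 31.8 CPM (25.0 to 40.0; 73 UMIs in 47 of 287 cells) in TAC, 3.01-fold lower (1.71 to 5.04), where 10.1% of 9452 genes were at least 2-fold lower and 10.1% at least 2-fold higher. Cells with and without Comp held the same median of fibroblast marker UMIs, 1 in sham and 2 in TAC. Some markers of the endocardial-like class, where sham Comp was highest, were also lower in TAC than in sham lymphatic endothelial-like cells. Npr3 was at 2.62 against 45.4 CPM, Cytl1 at 13.1 against 141 CPM and Vwf at 5.67 against 75.6 CPM. The other markers of that gate were higher in TAC, Nfatc1 at 81.6 against 50.4 CPM and Plvap at 506 against 206.6 CPM. The part of endocardial-like RNA in the Comp difference was not tested. The TAC Comp level was 6.69% of the fibroblast level, above the reference range of 0.625% to 2.93%. Thbs2 (6.40%, 17 UMIs) and Thbs3 (3.09%, 8 UMIs) were above that range in the same cells. Being above it therefore does not set Comp apart there.

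Thbs1 was above the range of the reference genes in lymphatic endothelial-like cells of both libraries and in TAC macrophage-like and neutrophil-like cells. In endocardial-like and endothelial-like cells it lay within that range, so those levels are not told apart from fibroblast RNA outside its class. In TAC mural-like cells Thbs1 was at 21.3% of the fibroblast level. The range there was wide, from 0.329% to 59.6% with a median of 3.56%, so lying within it decides little. In sham the order was fibroblast-like (194.7 CPM), lymphatic endothelial-like (75.6, 42.3 to 124.7), endocardial-like (24.6, 7.99 to 57.45), endothelial-like (15.3, 4.97 to 35.7) and macrophage-like cells (11.6, 8.89 to 14.9). The intervals of neighbours overlapped after the first. In TAC, fibroblast-like cells (384 CPM) were followed by neutrophil-like (163.6, 112 to 231), lymphatic endothelial-like (123, 109 to 138) and mural-like cells (82.0, 50.7 to 125), whose intervals overlapped. Macrophage-like cells (46.3, 41.6 to 51.4) came next, with an interval that touched that of the mural-like cells, then endocardial-like (22.2, 11.1 to 39.8) and endothelial-like cells (10.3, 6.79 to 15.0). In lymphatic endothelial-like cells Thbs1 was in 80 of 287 TAC cells, at 32.01% of the fibroblast level, and its TAC to sham ratio of 1.63 had an interval that took in 1 (0.970 to 2.95).

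Macrophage-like Thbs1 was 3.99-fold higher in TAC (3.03 to 5.32; 61 and 356 UMIs), where 3.23% of 8148 genes were at least 2-fold higher and 2.17% lower. The UMIs lay in few cells, 12 of 995 in sham and 65 of 734 in TAC, with up to 41 and 64 UMIs in 1 cell. Its TAC level was 12.05% of the fibroblast level, above the reference range of 0.413% to 5.61%, whereas the sham level of 5.96% lay within its range of 0.391% to 19.5%. Cells of the monocyte-like gate were few, but 5 of the 6 in TAC held Thbs1, 337 UMIs in all and up to 159 in 1 cell, which made 1.22% of the library's Thbs1 UMIs. The neutrophil-like cells of the TAC library held 32 UMIs in 9 of 72 cells. In endothelial-like cells Thbs3 had 4 sham and 5 TAC UMIs, 12.3 and 1.91 CPM, where 9.45% of 9152 genes were at least 2-fold lower and 7.70% higher. Comp in these cells went from 0 to 30 UMIs, 11.5 CPM in TAC, within the reference range.

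The genes around the members were read in the fibroblast-like class from lists drawn up with earlier results of these data known. Of the 8812 genes tested in this class, 3.06% were at least 2-fold higher in TAC and 2.44% at least 2-fold lower. Of 24 receptors and binding partners 14 were measured, 0 were at least 2-fold higher and 1 was lower, with a median log2 ratio of 0.26. The lower gene was Jag1, a Notch ligand, at -1.11, while the integrin subunit Itga9 was at 0.95, the proteoglycan Sdc1 at 0.85 and the scavenger receptor Lrp1 at 0.65. Cd47, a receptor of Thbs1, stood at 601 CPM in sham and 447 CPM in TAC. Of 14 proteases and inhibitors 10 were measured, of which 2 were at least 2-fold higher and 2 lower, with a median of 0.05. Timp1, an inhibitor of metalloproteinases, was at 3.25 and the aggrecanase Adamts4 at 1.05, while Htra1, a serine protease, was at -2.35 and Adamts1, which cleaves Thbs1 and Thbs2, at -1.48.

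Matrix partners of Comp and of the pentameric thrombospondins stood higher as a list. Of 24, 17 were measured, 10 were at least 2-fold higher and 0 lower, with a median log2 ratio of 1.12 beside -0.06 for all genes. Among all genes tested, 3.06% were at least 2-fold higher and 2.44% lower. Cilp, a cartilage intermediate layer protein that is also found in heart matrix, was at 3.91, Fmod at 3.69, the collagen chain Col9a2 at 3.41 and the lubricating proteoglycan Prg4 at 3.19. Of 18 TGF-beta ligands, latency and activation genes 17 were measured, 6 were higher and 1 was lower, with a median of 0.55. Ltbp2, a latent TGF-beta binding protein family member, was at 3.69, Ctgf at 3.33 and the ligand Tgfb1 at 2.10. The other matricellular proteins had 13 of 17 measured, 5 higher and 1 lower, with a median of 0.22: Postn was at 4.80, Spp1 at 4.51 (11 UMIs in sham) and Nov at -3.29.

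Genes of ATF6 and folding in the endoplasmic reticulum showed little difference. All 19 were measured, 1 was at least 2-fold higher and 0 lower, beside 3.06% and 2.44% of all genes tested, with a median of 0.13. Creld2, a known ATF6 target, was at 1.05 and Manf at 0.54, while the chaperone Hspa5 was at -0.51 and Herpud1 at -0.46. Atf6 itself stood at 23.5 and 23.1 CPM. Of 6 stretch-linked targets, a list added after the data were seen, 4 were measured and 1 was higher, Ctgf, while Cyr61 was at -0.42, Amotl2 at -0.36 and Lats2 at -0.16.

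Genes with the most similar pattern over the 11 combinations of fibroblast cluster and library were found by Pearson correlation of log2(CPM + 10) among 4760 genes. The points share 2 libraries and their depth, so the values describe these cells only. For Thbs1 close genes were Nox4 (0.98), Trib2 (0.96), Pld3 (0.95) and Creb3l2 (0.94), and for Thbs2 Tmem38b (0.90), Lpl (0.90) and Fam49a (0.89). For Thbs3 they were Adam15 (0.90), Anxa4 (0.89), Ecm1 (0.88) and Lamb2 (0.88). For Thbs4 they were Ecscr (0.98), Tcim (0.97), Ddah1 (0.97) and Rflnb (0.96), and for Comp Col16a1 (0.99), Cilp (0.98), Ltbp3 (0.97) and Rasl11b (0.96). Among the members, Thbs4 and Comp had a correlation of 0.88, Thbs1 had 0.79 with each of them, and Thbs2 and Thbs3 had -0.61. Over the 12 combinations of class and library, with 6846 genes compared, Thbs2 and Thbs3 instead had 0.94, and both were highest in fibroblast-like cells. Close genes over classes were Kcnk2 (0.97) for Thbs2, Slc1a3 (0.96) for Thbs3, Adprh (0.87) for Thbs1 and Lrrc41 (0.81) for Comp.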

How the data were processed

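The authors deposited raw UMI counts per gene and barcode for barcodes already called as cells, and the file headers name Cell Ranger 3.1.0. The build was mm10 per the submitters' processing notes, and the gene annotation is not given in the sources used here. Barcodes under 500 genes or 1000 UMIs, or over 15% of UMIs mitochondrial, were removed (462 sham, 901 TAC), then Scrublet doublets (70 and 146) in Scanpy 1.11.5. Classes were gated per cell by marker genes, and cells passing the gates of 2 lineages (295 and 561) or none (122 and 56) entered no class. UMIs were summed per class and library to CPM. Intervals are exact Poisson, conditional binomial and Clopper-Pearson. Genes with at least 10 CPM in either library were counted as past 2-fold on log2(CPM + 1). Fibroblast clusters came from 2000 variable genes without the members, 30 principal components and Leiden resolution 0.5 (igraph 0.11.9). Promoters came from RefSeq GRCm38.p6. The ratio script was tested on simulated data. Named genes were the members, up to 4 per list with the largest absolute log2 ratio, and the 4 most alike; a few genes that this rule names are not reported here. Atf6, Cd47 and Mtx1 were chosen after their values were seen. Members and lists were chosen with earlier results of these data known.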

Additional observations from a re-analysis of the deposited data

Results flagged for a closer look

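Comp in lymphatic endothelial-like cells had a log2 ratio of TAC to sham of -1.56 (19 and 73 UMIs), opposite in direction to its ratio of 5.93 in fibroblast-like cells. The endocardial markers Npr3, Cytl1 and Vwf were lower in TAC in the same cells, at 2.62 against 45.4 CPM, 13.1 against 141 CPM and 5.67 against 75.6 CPM. The other endocardial markers were higher in TAC there, Nfatc1 at 81.6 against 50.4 CPM and Plvap at 506 against 206.6 CPM. The part of endocardial-like RNA in the Comp difference was not tested. Thbs3 in endothelial-like cells had a log2 ratio of -2.19, opposite to 0.62 in fibroblast-like cells, from 4 sham and 5 TAC UMIs, and the 95% interval of its fold ran from 0.0335 to 0.785. The sham Thbs3 level there was 16.7% of the fibroblast level, above the 0% to 8.87% of the reference genes. With 1 library per group, neither difference between classes was tested.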

How the results depend on the processing

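None of the 5 ratios in fibroblast-like cells changed direction under the alternatives run; ratios in other classes were not recomputed. Thbs1 stood at a log2 ratio of 0.91 after thinning, 0.93 with the stricter gate and 1.04 with median-ratio scaling, which puts it past 2-fold; that scaling moved the median of all genes by 0.06. Under the same 3 settings Thbs2 stood at -0.71, -0.70 and -0.73. Thbs3 was at 0.70 with the stricter gate. With CPM + 10, Thbs4 was at 3.91 and Comp at 4.85. Without the cluster led by Scx and Tnmd, an alternative chosen after seeing the data, Thbs4 was at 5.18. Against 485 genes past 2-fold, 277 passed with CPM + 10, 806 with no CPM minimum and 244 with at least 50 CPM; median-ratio scaling gave 314 higher and 189 lower in place of 270 and 215. Without thinning the sham shares of cells were 29.2% for Thbs1, 53.4% for Thbs2 and 28.7% for Thbs3, and the TAC shares 66.2%, 60.7%, 65.6%, 13.9% for Thbs4 and 28.03% for Comp. The highest cluster at Leiden resolutions 0.3 and 1 was at 555 and 531 CPM for Thbs1 (main 808.5), 223 and 289 for Thbs2 (267), 166 and 828 for Thbs4 (6691) and 489 and 2580 for Comp (1929). Of 82 values under alternatives, 53 stayed within the counting interval of the main value or within 1.5 times a main count. Depth limits classes of under 50 cells in a library, for which no level is given. No paired analysis was possible because each group has 1 library.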
